A study of Ovis aries with 4 samples.

Results

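FGF10-negative fibroblasts of the lactating sheep mammary gland were defined here as cells with a clear decorin (DCN) signal, no unique molecular identifier (UMI) of CD3E, EPCAM or C1QA, and no UMI of FGF10. Each cell had to carry at least 5 DCN UMIs and at least 30 DCN UMIs per 10000, and at most 20% of its UMIs could come from 13 mitochondrial genes. The rule left 2738 cells of 38886, so the members were chosen by their own counts of these 5 genes and the mitochondrial genes. Another 847 cells met the same conditions but held at least 1 FGF10 UMI and are called FGF10-positive fibroblasts, and the 35301 remaining cells are called cells outside the gate. The data are 10x droplet single-cell RNA counts from mammary tissue of 4 ewes (Ovis aries), with 1 library per ewe. The design text names 2 ewes in peak lactation and 2 in late lactation. Titles give LH replicates 1 and 2 and LL replicates 1 and 2, where LL is the design text's short form of late lactation and LH was taken as peak lactation by elimination. No breed, age or treatment is given, so the groups differ by label in lactation stage alone.

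Fibroblasts are the connective tissue cells between the milk-producing alveoli, the ducts and the fat. They deposit collagens and proteoglycans, remodel that matrix with metalloproteinases and their inhibitors, and send growth factors to the epithelium. FGF10 is one of those factors: it is a ligand of the receptor FGFR2 on epithelial cells and is needed for the mammary placode and for branching in the mouse. FGF7 uses an epithelial form of the same receptor. Of 20150 genes in the files only 774 had a symbol, no collagen gene among them, so the account below covers the matrix through its proteoglycans, enzymes and secreted modulators.

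The cells were unevenly spread over libraries. LH replicate 1 held 145 of them, LH replicate 2 held 22, LL replicate 1 held 1699 and LL replicate 2 held 872. Their median depth was 3399, 2290, 3578 and 2643.5 UMIs per cell in that order, against 3314, 2994, 2952 and 2715 in cells outside the gate. Summed over cells, they gave 598742, 69402, 6679615 and 2628737 UMIs, so 1 UMI was worth 14.4 CPM (UMIs per 1000000 summed UMIs of the class and library) in LH replicate 2 and 0.150 CPM in LL replicate 1. Doublet calls took 5, 6, 212 and 75 FGF10-negative cells (3.45%, 27.3%, 12.5% and 8.60%), and each library shared 48 to 91 barcode sequences with another, of which 1, 1, 12 and 6 were FGF10-negative cells. LH replicate 2, with the fewest cells and UMIs, gives the least firm levels.

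The share of FGF10-negative fibroblasts among kept barcodes was 2.48% (95% exact Clopper-Pearson interval 2.09% to 2.91%) in LH replicate 1 and 0.235% (0.147% to 0.356%) in LH replicate 2. It was 13.4% (12.9% to 14.05%) in LL replicate 1 and 7.90% (7.41% to 8.42%) in LL replicate 2. The LH libraries were both below the LL libraries, with means of 10.7 ± 3.92% in LL and 1.36 ± 1.59% in LH (SD, n = 2 each). The difference was 9.32 percentage points, and the exact two-sided permutation test over libraries gave p = 0.333, the smallest value that 2 against 2 allows. The intervals cover counting error only, and the shares are of recovered barcodes. T cells were also unequal: 2619 of the 5853 kept barcodes of LH replicate 1 fell in the class with a CD3E UMI. Without barcodes holding a CD3E UMI the shares were 4.52%, 0.256%, 14.9% and 8.67%.

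Within the gate, 63.0% (56.5% to 69.3%) of LH replicate 1, 88% (68.8% to 97.5%) of LH replicate 2, 81.8% (80.0% to 83.4%) of LL replicate 1 and 69.6% (67.0% to 72.2%) of LL replicate 2 had no FGF10 UMI. The groups overlapped, and the LL minus LH difference of 0.183 percentage points had an exact permutation p of 1. A zero depends on depth. After each cell was thinned to 2000 UMIs, with shallower cells left out, the shares were 69.6%, 86.7%, 86.5% and 74.3%, and among gated cells of at least 5000 UMIs they were 48.6%, 83.3%, 80.2% and 64.7%. Summed over all gated cells, FGF10 stood at 270, 131, 113 and 232 CPM. A cell at 0 is not shown to lack FGF10 transcript. Of the FGF10-positive cells, 32, 1, 164 and 175 held exactly 1 FGF10 UMI and 53, 2, 215 and 205 held more. In the plot of both shares by library, the order of libraries differs between its panels.

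**Figure D1:**
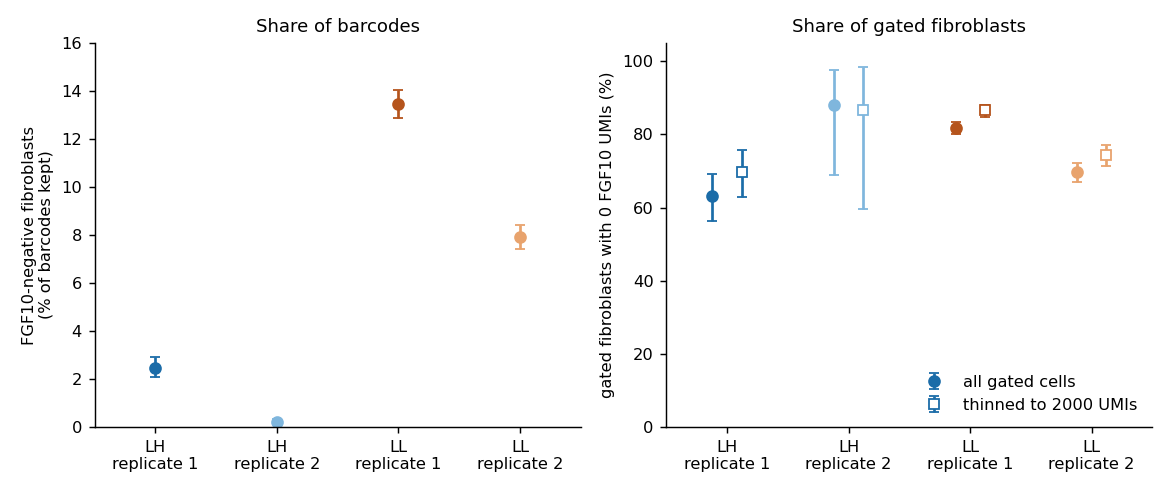
Percent of kept barcodes that were FGF10-negative fibroblasts (left) and percent of gated fibroblasts with 0 FGF10 UMIs (right; filled circles at full depth, open squares thinned to 2000 UMIs) in each library, with exact 95% intervals for counting error. LL replicates 1 and 2 sit at 13.4% and 7.90% on the left, above both LH libraries, while on the right LH replicate 1 and LL replicate 2 are the lowest.

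The gate met few cells at its edges. Inside it, 2, 1, 12 and 10 FGF10-negative cells, in the same library order, held exactly 5 DCN UMIs, and 4, 0, 26 and 8 lay between 30 and 40 DCN UMIs per 10000. Just outside, 1, 0, 8 and 7 cells held exactly 4 DCN UMIs, and 1, 2, 24 and 7 lay between 20 and 30 per 10000. The median FGF10-negative cell held 154, 191, 152 and 165 DCN UMIs per 10000. DCN, a small leucine-rich proteoglycan that binds collagen fibrils, was a condition of membership, so these levels are a description. DCN UMIs were also found in 5.28%, 1.52%, 27.3% and 14.8% of cells outside the gate.

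Other fibroblast markers, none of them used by the rule, were carried by the same cells. SERPINF1 encodes pigment epithelium-derived factor, a secreted inhibitor of vessel growth. It stood at 1436, 2421, 843 and 722 CPM in FGF10-negative fibroblasts and at 8.97, 0.588, 16.9 and 5.64 CPM in cells outside the gate, in the order LH replicate 1, LH replicate 2, LL replicate 1, LL replicate 2. At 2000 UMIs per cell, a SERPINF1 UMI was found in 69.1%, 100%, 66.9% and 59.8% of FGF10-negative cells (75.2%, 95.5%, 75.7% and 62.2% unthinned) and in 0.679%, 0.0600%, 2.22% and 1.06% of cells outside the gate. The other 4 tested markers of the fibroblast list, MMP2, SFRP2, TIMP2 and GSN, were also called higher and lay higher in all 4 libraries. Of all genes tested 22.7% lay higher in all 4 libraries and 11.4% were also called higher. The label of the cells as fibroblasts matched these 5 markers, which the rule did not use.

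Markers of other cell types were present, and those of T cells, myeloid cells and luminal epithelium were lower than outside the gate in every library. Summed over 8 T cell markers, FGF10-negative fibroblasts held 98.5, 28.8, 34.1 and 58.6 CPM, against 1590, 246, 361 and 279 CPM outside the gate. Summed over 5 myeloid markers the values were 15.0, 28.8, 9.28 and 14.1 CPM, against 505, 299.6, 260.1 and 125 CPM. The 5 endothelial markers summed to 48.4, 14.4, 73.1 and 48.3 CPM, against 47.6, 45.0, 405 and 90.8 CPM, so LH replicate 1 held as much inside as outside the gate. The 10 luminal epithelial markers summed to 21.7, 259, 337 and 168 CPM, against 1761, 5468, 2990 and 7014 CPM outside the gate. CD3E, C1QA and EPCAM are members of the T cell, myeloid and luminal sums and were at 0 inside the gate by the rule. Part of the difference in those sums was therefore fixed in advance. Among the tested members, which leave these genes out, 7 of 7 T cell, 3 of 4 myeloid and 6 of 6 luminal genes were called lower. Of all genes tested 24.9% were, and of those with a symbol 33.1%. The myoepithelial oxytocin receptor gene OXTR was at 0 UMIs in all 4 libraries. The 6 mural and myoepithelial markers summed to 254, 634, 358 and 288 CPM, against 314, 720, 451 and 305 CPM in cells outside the gate.

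FGF10-negative fibroblasts differed from cells outside the gate in a large part of the transcriptome. The edgeR quasi-likelihood test on summed UMIs, with the library as a block, called 5273 of 13389 genes (39.4%) at a Benjamini-Hochberg adjusted p under 0.05. Of these 1936 (14.5%) were higher and 3337 (24.9%) lower in the FGF10-negative cells. DESeq2 called 33.5% of the tested genes, and 47.2% had an unadjusted edgeR p under 0.05. Of the 565 tested genes with a symbol 267 (47.3%) were called, of which 80 (14.2%) were higher and 187 (33.1%) lower. The cells outside the gate are a mixture of T cells, epithelium, vessels and macrophages in proportions that differ by library, so a difference from them is a difference from that mixture. The plot of the 25 named genes against other cells shows every library apart.

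**Figure D2:**
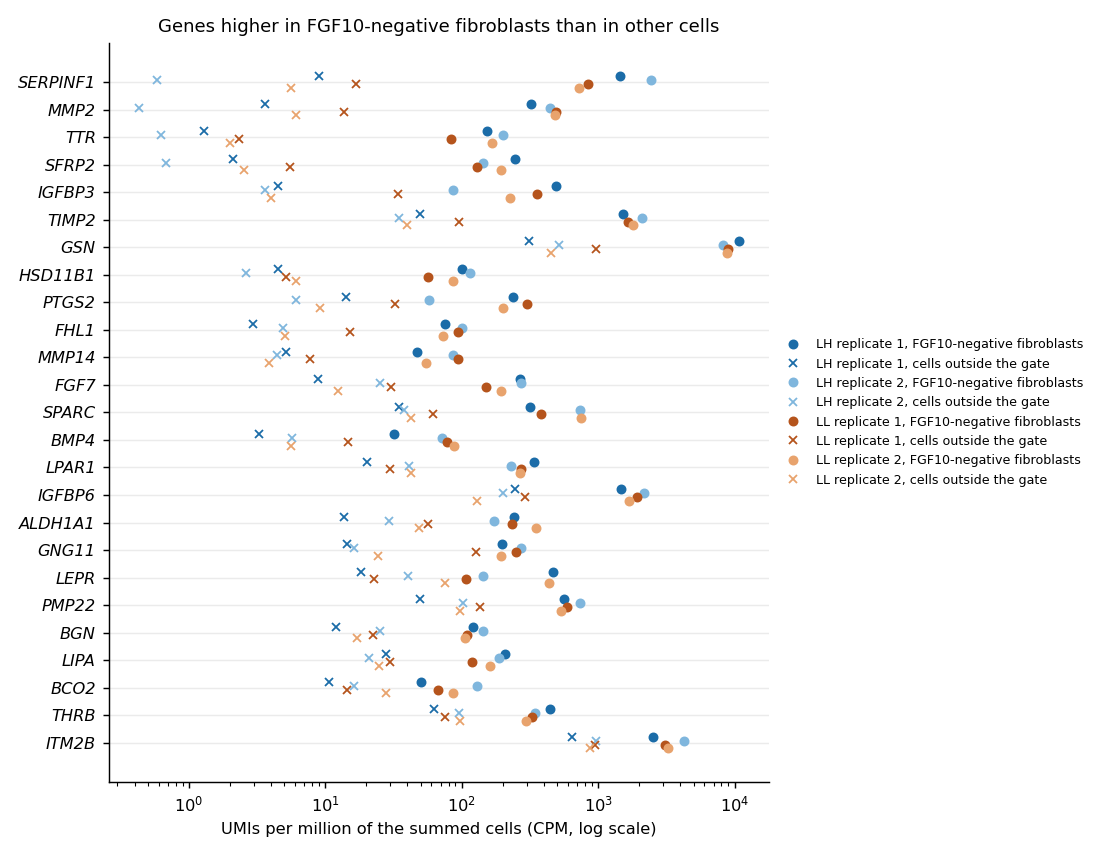
CPM of summed UMIs (log axis) of the 25 named genes that were higher in FGF10-negative fibroblasts (circles) than in cells outside the gate (crosses), 1 colour per library, ordered by fitted difference. In each library the circle lies to the right of the cross of the same colour, from SERPINF1 at the top, with a log2 difference of 7.34, to ITM2B at the bottom, with 1.65.

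Matrix enzymes and their inhibitors were among the named genes. MMP2, the gelatinase that degrades collagen IV and denatured collagens, stood at 321, 447, 489 and 486 CPM in FGF10-negative fibroblasts and at 3.61, 0.428, 13.7 and 6.06 CPM outside the gate. The log2 difference was 6.39 ± 0.59 (SE), with an edgeR adjusted p of 7.43e-06. TIMP2, which both inhibits MMP2 and helps to activate its proform, stood at 1522, 2104, 1641 and 1808.5 CPM against 49.2, 34.8, 95.8 and 40.02 CPM, a log2 difference of 4.84 ± 0.29 (edgeR adjusted p = 7.04e-07). Neither gene's 2 sets of libraries overlapped. MMP14, the membrane protease that cleaves the proform of MMP2, was higher by 3.40 ± 0.24, and all 3 genes lay higher in each library. The broader inhibitor genes TIMP3 (1.40 ± 0.29) and TIMP1 (1.46 ± 0.20) were also higher. Of 13 tested members of the protease and inhibitor list 7 were higher and 2 lower, where 14.5% and 24.9% of all genes were. The list's median log2 difference was 1.40 against -0.15 over all genes tested. The 2 lower ones were MMP7, an epithelial matrilysin (0, 0, 2.25 and 1.14 CPM against 75.5, 77.3, 38.6 and 24.6), and the urokinase receptor gene PLAUR.

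Among matrix proteoglycans and matricellular proteins, 3 of 5 tested members were higher and 2 lower, where 14.5% and 24.9% of all genes were. Biglycan (BGN), the close relative of decorin, stood at 122, 144, 110 and 106 CPM against 11.9, 25.1, 22.3 and 17.1 CPM (log2 difference 2.44 ± 0.24). SPARC, a collagen-binding matricellular protein, stood at 316, 735, 380 and 744 CPM against 34.7, 37.5, 61.4 and 42.7 CPM (3.27 ± 0.27). CCN2, a matricellular protein known as a target of TGF-beta and YAP signalling, was higher by 1.51 ± 0.46 (edgeR adjusted p = 0.0218). The lower ones were SPP1, which encodes osteopontin and is made by epithelium and macrophages, and RELN, a marker of lymphatic endothelium. GSN, which encodes the actin-severing protein gelsolin, stood at 10751, 8213, 8885 and 8852.5 CPM against 311, 513, 963 and 451 CPM, and was the 1 higher gene among 9 tested contractile and actin-associated members, with 3 lower, counts near the shares over genes with a symbol (14.2% and 33.1%).

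The cells also carried a set of IGF-binding proteins, which hold insulin-like growth factors outside the cell. Of 6 tested members of the IGF list 5 were higher and none lower, where 14.5% and 24.9% of all genes were. The list's median log2 difference was 1.97 against -0.15 over all genes. IGFBP3, the main carrier of IGF in blood, stood at 491, 86.5, 355 and 226 CPM against 4.54, 3.64, 34.4 and 4.02 CPM (log2 difference 4.94 ± 0.53). The low value of LH replicate 2 rests on 6 UMIs. IGFBP6, which prefers IGF-II, stood at 1475, 2176, 1913 and 1693 CPM against 244, 199, 293 and 129 CPM (2.84 ± 0.23), and IGFBP4 was higher by 2.94 ± 0.44. IGFBP7 was higher by only 1.11 ± 0.34 (edgeR adjusted p = 0.0238). Cells outside the gate with a UMI of the mural gene EDNRA held 1002, 2172, 1670 and 1095 CPM of it. The growth hormone receptor gene GHR was higher by 0.96 ± 0.25. IGFBP5 was not called (0.27 ± 0.24).

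Of the signals sent to neighbouring cells, FGF7 was called higher. It stood at 267, 274, 152 and 196 CPM against 8.89, 25.3, 30.3 and 12.5 CPM, a log2 difference of 3.39 ± 0.37 (edgeR adjusted p = 2.68e-05). Cells outside the gate with an EDNRA UMI held 98.5, 134, 81.3 and 70.3 CPM. FGF2, a growth factor of broad expression, did not pass the test (374, 202, 298 and 260 CPM against 316, 405, 339 and 459). Of 10 tested members of the TGF-beta and BMP list 4 were higher and none lower, where 14.5% and 24.9% of all genes were. They were the ligand BMP4 (3.00 ± 0.30), the activin antagonist FST (2.33 ± 0.55, with 0 UMIs in LH replicate 2), the activin receptor gene ACVR2A (1.27 ± 0.21) and ID3, a transcriptional target of BMP signals (1.52 ± 0.21). Both tested genes of the WNT list were higher. SFRP2, a secreted modulator of WNT ligands, stood at 244, 144, 129 and 196 CPM against 2.12, 0.678, 5.48 and 2.52 CPM (5.85 ± 0.44), and the ligand WNT2 was higher by 2.89 ± 0.72 at 1.65 to 28.8 CPM.

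Receptors and enzymes of circulating signals were split. Of 11 tested hormone and paracrine receptor genes 5 were higher and 5 lower, where 14.5% and 24.9% of all genes were (14.2% and 33.1% of those with a symbol). The leptin receptor gene LEPR stood at 468, 144, 107 and 433 CPM against 18.4, 40.2, 22.8 and 75.9 CPM (log2 difference 2.60 ± 0.42), and its spread between ewes was wide in both stages. The thyroid hormone receptor genes THRB (1.85 ± 0.25) and THRA (0.83 ± 0.26), GHR and the angiotensin receptor gene AGTR1 (3.14 ± 0.57) were the other higher ones. MET, the epithelial receptor of hepatocyte growth factor, had a log2 difference of -4.42 ± 0.32, and ESR2, AVPR1A and EDNRA, receptors of estrogen, vasopressin and endothelin, were among the other lower ones with -4.21, -2.03 and -0.84. Of 4 tested retinoid and steroid enzymes and carriers 3 were higher: TTR, which carries thyroxine and retinol-binding protein (6.18 ± 0.41), HSD11B1, which regenerates active glucocorticoid (3.84 ± 0.30), and ALDH1A1, which makes retinoic acid (2.64 ± 0.33). TTR was unevenly held, with a UMI in 15.4%, 8.33%, 10.5% and 13.9% of thinned FGF10-negative cells (20.7%, 9.09%, 15.3% and 15.4% unthinned) against 0.0657% to 0.435% of thinned cells outside the gate.

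The remaining higher genes had other roles. PTGS2, the inducible cyclooxygenase of prostaglandin synthesis, stood at 239, 57.6, 303 and 202 CPM against 14.1, 6.13, 32.3 and 9.12 CPM (log2 difference 3.60 ± 0.27). The lysophosphatidic acid receptor gene LPAR1 (2.87 ± 0.29), the lysosomal lipase gene LIPA (2.36 ± 0.22), the carotenoid-cleaving BCO2 (1.89 ± 0.24), the LIM-domain gene FHL1 (3.48 ± 0.33), the G protein subunit gene GNG11 (2.61 ± 0.43), the peripheral myelin protein gene PMP22 (2.45 ± 0.25) and the membrane protein gene ITM2B (1.65 ± 0.19) completed the named set. PPARG, the regulator of fat cell formation, was higher by 1.34 ± 0.33, while PLIN1, a coat protein of the fat cell's lipid droplet, held at most 0.380 CPM in any library.

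Most cytokine genes and most immediate early genes tested were lower. None of 11 tested cytokines and chemokines was higher and 10 were lower, with a median log2 difference of -3.04 against -0.15 over all genes, of which 24.9% were lower. Over genes with a symbol, from which the lists are drawn, the median was -0.32 and 33.1% were lower. CXCL8, the neutrophil attractant, held 1, 0, 3 and 1 UMIs in all FGF10-negative fibroblasts of the 4 libraries, against 147, 29.1, 46.0 and 10.3 CPM outside the gate. Of 9 tested dissociation and immediate early genes none was higher and 6 were lower, with a median of -0.91: ZFP36, which destabilises inflammatory messages, stood at 394, 360, 609 and 734 CPM against 937, 1559, 2162 and 2013 CPM (-1.90 ± 0.23). Epithelial genes were lower too. The tight junction genes CLDN4 (0, 1, 9 and 3 UMIs) and CLDN7 (0, 1, 15 and 17 UMIs) and the epithelial integrin gene ITGB6 (0, 0, 20 and 14 UMIs) were lower by log2 differences of -6.32, -6.12 and -5.60. LTF, which encodes the milk protein lactoferrin, stood at 5.01, 57.6, 17.5 and 64.3 CPM against 395, 998, 894 and 3377 CPM, and its order over libraries was the same inside and outside the gate.

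The nearest population was the FGF10-positive fibroblasts, which differed by the rule in FGF10 alone. Of 5 tested fibroblast markers 2 were called higher in FGF10-negative cells, SERPINF1 and SFRP2, and none lower. Of all genes 1.4% were called higher, and of those with a symbol 4.34%. GSN, MMP2 and TIMP2 were not called. GSN stood at 10751, 8213, 8885 and 8852.5 CPM in FGF10-negative and 10341, 8252, 8722 and 9312 CPM in FGF10-positive cells, with a log2 difference of 0.15 ± 0.15. MMP2 differed by -0.01 ± 0.12 and TIMP2 by 0.24 ± 0.13, and neither was called (edgeR adjusted p = 0.988 and 0.517). FGF7, which shares a receptor with FGF10, differed by -0.21 ± 0.11 and was not called either.

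A limited set of genes did differ. edgeR with the library as a block called 180 of 7877 genes (2.29%), 110 higher (1.4%) and 70 lower (0.889%) in FGF10-negative cells. With a symbol, 18 of 369 were called (4.88%), 16 higher (4.34%) and 2 lower (0.542%). Of all genes, 10.4% had an unadjusted edgeR p under 0.05, 8.3% lay higher and 9.08% lower in all 4 libraries, and 0.876% were both called higher and higher in all 4. LH replicate 2 had 3 FGF10-positive cells with 14663 UMIs, and without it 54 genes were called. Of the 18 calls with a symbol, 6 remained without LH replicate 2: SERPINF1, BGN, BHLHE40, IGFBP7 and IGFBP6, all higher, and ACVR2A, lower. Of the other named calls, AQP1, CCN2, CAV1, TTR, PAEP, IGFBP5, VAMP7 and SFRP2 had edgeR adjusted p of 0.0529 (CAV1) to 0.104 (TTR) without it, with log2 differences of the same direction, and SPARC was also not called. DESeq2 called 22 genes in all (0.279%) and 4 of the 18, and with libraries taken as unpaired samples edgeR called 0 genes (133 at an unadjusted p under 0.05).

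SERPINF1 had the lowest adjusted p of the genes with a symbol. It stood at 1436, 2421, 843 and 722 CPM in FGF10-negative and at 1027, 1159, 468 and 550 CPM in FGF10-positive fibroblasts, higher in 4 of 4 libraries by a log2 difference of 0.71 ± 0.12 (edgeR adjusted p = 2.32e-06, DESeq2 adjusted p = 0.0368). BGN stood at 122, 144, 110 and 106 CPM against 80.4, 0, 74.0 and 51.8 CPM (0.80 ± 0.15, DESeq2 adjusted p = 0.0483), where the 0 comes from the 3 cells of LH replicate 2. Of 4 tested matricellular and proteoglycan genes 3 were called higher, BGN, SPARC (0.43 ± 0.12) and CCN2 (0.77 ± 0.22), and none lower. Of all genes 1.4% were called higher, and of those with a symbol 4.34%. The median log2 difference of the list was 0.65 against 0.01 over all genes tested. SPARC lay higher only in the LL libraries, at 316, 735, 380 and 744 CPM against 328.5, 1296, 295.5 and 432 CPM. Of 10 tested proteases and inhibitors only SERPINF1 was called.

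In the IGF list 3 of 6 tested members, all 3 IGF-binding proteins, were called higher, where 1.4% of all genes and 4.34% of those with a symbol were. IGFBP7 stood at 1056, 1066, 626 and 537 CPM against 664, 341, 529 and 341 CPM (log2 difference 0.62 ± 0.12). IGFBP5 stood at 78.5, 202, 377 and 134 CPM against 39.1, 0, 228 and 124 CPM (0.60 ± 0.13), and IGFBP6 was higher by 0.43 ± 0.13, in every library but LH replicate 2. IGFBP3 was not called (0.12 ± 0.12). SFRP2 stood at 244, 144, 129 and 196 CPM against 159, 68.2, 74.7 and 177 CPM, a difference of 0.53 ± 0.12.

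BHLHE40, a clock-linked repressor, stood at 95.2, 72.0, 113 and 123 CPM against 52.8, 68.2, 70.8 and 77.7 CPM (log2 difference 0.74 ± 0.14, DESeq2 adjusted p = 0.0149). TTR was higher by 0.69 ± 0.14, with no difference in LH replicate 1 (154 against 154 CPM). The lower genes were ACVR2A, the type 2 receptor of activins, at 140, 115, 70.5 and 114 CPM against 177, 136, 125 and 182 CPM (-0.61 ± 0.13), and VAMP7, a vesicle fusion protein gene, at 26.7, 28.8, 36.5 and 30.8 CPM against 52.8, 136, 53.3 and 60.4 CPM (-0.73 ± 0.20). Both were lower in 4 of 4 libraries.

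Some of the higher genes are also expressed in vessel or epithelial cells. AQP1, a water channel of endothelium, showed the largest difference (1.18 ± 0.25) at 16.7, 43.2, 37.7 and 39.9 CPM against 18.4, 0, 19.5 and 11.8 CPM, and CAV1, the main caveolar protein gene, was higher by 0.76 ± 0.19. In cells outside the gate with a UMI of KDR, SELP, SELE or RELN, CAV1 stood at 443 to 708 CPM. AQP1 stood there at 16.5, 14.6, 54.2 and 14.7 CPM, above FGF10-negative fibroblasts in LL replicate 1 only. The 5 endothelial markers summed to 48.4, 14.4, 73.1 and 48.3 CPM in FGF10-negative and 25.3, 68.2, 56.5 and 54.9 CPM in FGF10-positive cells. PAEP, the gene of the whey protein beta-lactoglobulin, was higher by 0.64 ± 0.16 (1.67, 43.2, 149 and 73.8 against 4.59, 0, 97.4 and 50.2 CPM). With the gate at 10 DCN UMIs and 60 per 10000 PAEP turned to -0.36. With 7 more genes of other cell types at 0, AQP1 was 1.15 and PAEP 0.72, both still called (edgeR adjusted p = 7.3e-04 and 0.00275). CAV1 was 0.59 there and was not called (edgeR adjusted p = 0.124). At the gate used throughout, the 10 luminal markers summed to 21.7, 259, 337 and 168 CPM in FGF10-negative and 16.1, 136, 209 and 137 CPM in FGF10-positive cells. The part of these other cell types in the differences was not tested.

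Depth also moved with the classes. FGF10-positive cells had medians of 4402, 4356, 3577 and 2889.5 UMIs, above those of FGF10-negative cells except in LL replicate 1 (3577 against 3578). With each cell thinned to at most 2000 UMIs 119 genes were called, SERPINF1, BGN, BHLHE40, IGFBP7, SFRP2, TTR and ACVR2A among them. None of the 18 calls with a symbol was kept under all 4 omissions of a single library: without LL replicate 1 BGN and IGFBP7 were left, and without LL replicate 2 SERPINF1, SFRP2, TTR, IGFBP5 and ATP1B1. A test of whether these differences depended on stage called 7 of 7877 genes, none with a symbol, and 0 of 8865 without LH replicate 2 (604 at an unadjusted edgeR p under 0.05).

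**Figure D3:**
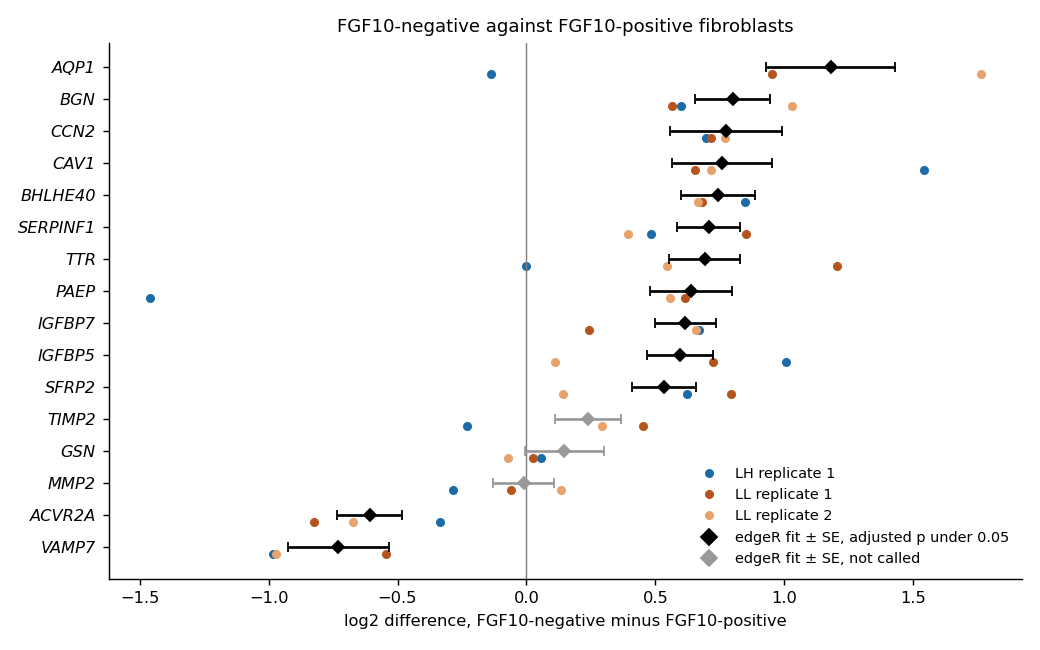
Log2 difference between FGF10-negative and FGF10-positive fibroblasts for the named genes, with the edgeR fit over 4 libraries and its SE as diamonds (black: called; grey: not called) and the log2 ratios of summed CPM as circles for 3 libraries (LH replicate 2, with 3 FGF10-positive cells, is not drawn). BGN, BHLHE40, SERPINF1, IGFBP7 and SFRP2 lie to the right of 0 in all 3 libraries, VAMP7 and ACVR2A to the left, and PAEP on both sides.

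Lactation stage was compared within the FGF10-negative fibroblasts by edgeR on the 4 sums. Of 9291 genes tested 1 was called (0.0108%), higher in LL, and 0 were lower (0.0%). At an unadjusted p under 0.05 there were 549 genes (5.91%), and DESeq2 called 5 (0.0538%). Of the 413 tested genes with a symbol none was called by edgeR or DESeq2, and 44 had an unadjusted edgeR p under 0.05. The stages did not overlap for more genes: LL was the higher stage for 2379 genes (25.6%) and the lower for 1140 (12.3%). With 2 libraries against 2, a share of 0.333 of all arrangements separates the groups, both directions together. Non-overlap alone therefore says little about stage. The count of calls rested on single libraries: it was 0 without LH replicate 1, 8 without LH replicate 2, 11 without LL replicate 1 and 36 without LL replicate 2, where an arm of 1 library is assumed to vary like the other.

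The called gene has the identifier ENSOARG00000002980 and no symbol. No UMI of it was found in either LH library, while LL replicates 1 and 2 gave 883 and 390 UMIs, or 132 and 148 CPM (edgeR adjusted p = 0.0228, DESeq2 adjusted p = 0.00484). Set against 3 UMIs over the LH group, it was at least 30.5-fold higher in LL. The other classes lay the same way: cells outside the gate held 0.298 and 0.374 CPM in LH against 144 and 202 CPM in LL, and FGF10-positive fibroblasts held 0, 0, 106 and 113 CPM. With 2 ewes per stage, a difference between ewes and a difference between stages cannot be told apart for this gene.

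The fibroblast markers did not pass the stage test, but their values differed in how they lay. SERPINF1 stood at 1436 and 2421 CPM in LH against 843 and 722 CPM in LL, with no overlap and a log2 difference of -1.26 ± 0.33 (edgeR adjusted p = 0.609). FGF10-positive fibroblasts of the same ewes had 1027 and 1159 CPM in LH against 468 and 550 CPM in LL. IGFBP7 likewise did not overlap, at 1056 and 1066 CPM in LH against 626 and 537 CPM in LL (-0.88 ± 0.30, edgeR adjusted p = 0.788), as did FGF7, at 267 and 274 CPM against 152 and 196 CPM (-0.69 ± 0.26). MMP2 stood at 321 and 447 CPM in LH against 489 and 486 CPM in LL (0.39 ± 0.27), also without overlap. TIMP2 (-0.05 ± 0.33), GSN (-0.13 ± 0.45) and SFRP2 (-0.48 ± 0.33) overlapped between the stages. BMP4 stood at 31.7 and 72.0 CPM in LH against 77.5 and 87.5 CPM in LL (1.03 ± 0.34), and its value in LH replicate 2 rests on 5 UMIs. The plot of levels by library shows these genes beside the cells outside the gate.

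**Figure D4:**
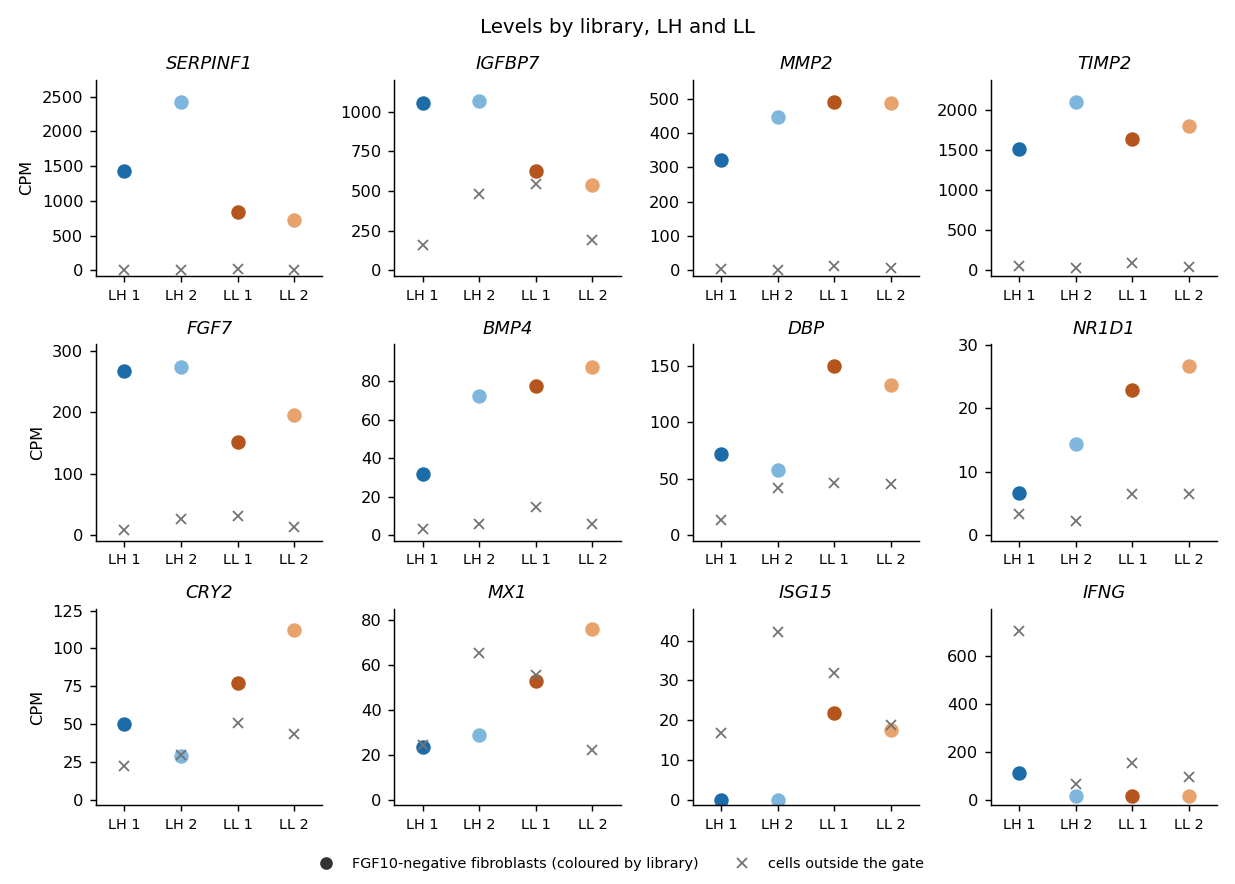
CPM of 12 genes in each library, in FGF10-negative fibroblasts (coloured circles) and in cells outside the gate (grey crosses). Every vertical axis is linear and starts just below 0. SERPINF1, IGFBP7 and FGF7 are higher in both LH libraries, DBP, NR1D1, CRY2, MX1 and ISG15 in both LL libraries, and none of the 12 passed the adjusted test. In LH replicate 2 a count of 3 UMIs was worth 43.2 CPM in FGF10-negative fibroblasts, above both LL values of ISG15.

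Of 8 tested circadian clock genes 5 lay higher in both LL libraries and none lower, where 25.6% of all genes did so, and the list's median log2 difference was 0.87 against 0.03 over all genes tested. None was called. DBP, an output gene of the clock, stood at 71.8 and 57.6 CPM in LH against 150 and 133 CPM in LL (0.95 ± 0.29, edgeR adjusted p = 0.706). The clock repressor genes NR1D1 (6.68 and 14.4 against 22.9 and 26.6 CPM) and CRY2 (50.1 and 28.8 against 77.1 and 112 CPM) lay the same way. In LH replicate 2 these values rest on 4, 1 and 2 UMIs. Cells outside the gate held 13.3 and 41.4 CPM of DBP in LH against 46.5 and 45.5 CPM in LL, and 22.5 and 29.7 against 51.0 and 43.5 CPM of CRY2, so both lay higher in LL there too.

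Of 6 tested interferon response genes 5 lay higher in both LL libraries and 1 lower, where 25.6% and 12.3% of all genes did so. Their median was 0.79 against 0.03 over all genes, and none was called. ISG15, a ubiquitin-like interferon target, held 0 of 668144 UMIs in LH, which allows up to 4.49 CPM by a count of 3 over the group, and 21.9 and 17.5 CPM in LL, at least 4.59-fold higher. LH replicate 1 gave 598742 of those LH UMIs. In LH replicate 2 alone a count of 3 was worth 43.2 CPM, above both LL values. The 0 of ISG15 in that library therefore cannot place it below LL. MX1, an antiviral GTPase gene, stood at 23.4 and 28.8 CPM in LH against 52.5 and 75.7 CPM in LL (1.29 ± 0.39, edgeR adjusted p = 0.706). In LH replicate 2 the MX1 value rests on 2 UMIs. B2M, the light chain of MHC class I, was the 1 member that lay lower (292 and 231 against 170 and 189 CPM). In cells outside the gate ISG15 stood at 16.8, 42.3, 31.9 and 18.8 CPM and MX1 at 24.5, 65.1, 55.4 and 22.3 CPM, with the stages overlapping for both. The log2 stage difference of FGF10-negative cells minus that of FGF10-positive cells was -1.38 for MX1 and 0.33 for ISG15. Neither was called, so the LL values are not shown to be particular to FGF10-negative cells.

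The 20 genes of lowest p included the leukocyte genes IFNG, ITGAL and TNF and the milk protein gene PAEP. IFNG, the cytokine of T and natural killer cells, stood at 114 and 14.4 CPM in LH against 15.0 and 16.7 CPM in LL (-2.62 ± 0.47, edgeR adjusted p = 0.301). Only LH replicate 1 was high: the difference was 0.32 without it, -2.98 without LH replicate 2 (edgeR adjusted p = 0.0399) and -2.56 without LL replicate 2 (edgeR adjusted p = 0.0147). With 7 more genes of other cell types required at 0 it was -0.93 (edgeR adjusted p = 0.859). That library held 704 CPM of IFNG in cells outside the gate, against 64.1, 153 and 94.3 CPM in the others, and its FGF10-negative cells had the highest sum of T cell markers (98.5 CPM). ITGAL, a leukocyte integrin gene (18.4 and 14.4 against 2.84 and 3.04 CPM), and TNF (18.4 and 14.4 against 5.54 and 3.42 CPM) were further leukocyte genes among them, each with 1 UMI in LH replicate 2. PAEP stood at 1.67 and 43.2 CPM in LH against 149 and 73.8 CPM in LL (4.04 ± 0.87, edgeR adjusted p = 0.515), with adjusted p of 0.0297 without LL replicate 1 and 4.00e-05 without LL replicate 2, and in cells outside the gate with an EPCAM UMI at 548 and 720 CPM in LH against 2683 and 2944 CPM in LL. The part of these other cells in the values was not tested.

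The other genes named by lowest p were metabolic or of mixed role, and none was called. GAPDH, of glycolysis, stood at 219 and 418 CPM in LH against 557 and 578 CPM in LL (0.96 ± 0.31). IDH1, a source of NADPH, stood at 30.1 and 57.6 against 66.9 and 83.7 CPM. ABHD5, a cofactor of fat breakdown (30.1 and 28.8 against 9.43 and 11.8 CPM), the mitochondrial gene ND6 (86.8 and 57.6 against 36.8 and 33.9 CPM), and GGTA1, which makes the alpha-galactose epitope (239 and 403 against 155 and 194 CPM), lay lower in LL. ATP1B1 and CTTNBP2 had negative log2 differences (-1.46 ± 0.38 and -0.95 ± 0.31) but overlapped between the stages, and without LH replicate 1 they stood at 0.33 and 0.11. FLT3LG (26.7 and 28.8 against 53.6 and 63.1 CPM) and ZNF496 (0 and 0 against 7.64 and 9.51 CPM, at least 1.82-fold higher) lay higher in LL.

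The FGF10-negative fibroblasts were not uniform. Spread was measured as the variance of UMIs per cell divided by the mean, which is 1 for Poisson counting, in cells thinned to 2000 UMIs, over the 242 genes with a symbol and a mean of at least 0.05 UMIs. This left 123, 1425 and 605 cells of LH replicate 1, LL replicate 1 and LL replicate 2, and LH replicate 2 had too few cells. FOS, an immediate early transcription factor gene induced within minutes of stress, had the highest average, with 15.7, 10.1 and 13.2. It was detected in 52.8%, 66.7% and 69.3% of the thinned cells, with up to 54, 53 and 65 UMIs in 1 cell. ZFP36 (5.91, 4.01 and 5.25) and BTG2, an antiproliferative early response gene (6.15, 2.22 and 2.08), were also spread widely, as were DCN, GSN and IGFBP6. DCN was a gate gene, so its spread is among cells chosen by its own count. The means of DCN were 31.9, 32.3 and 36.8 UMIs per cell and those of GSN 22.2, 18.5 and 18.2. The ratio was not adjusted for the mean. For others 1 of the 3 libraries stood apart: TTR had 7.42 in LL replicate 2 against 2.10 and 1.81, and SPARC had 6.46 there against 2.22 and 1.31. The highest count in 1 cell of LL replicate 2 was 32 UMIs for TTR and 37 for SPARC, at means of 0.334 and 1.24 UMIs. In the other libraries it was 4 and 5 for TTR and 8 and 9 for SPARC. BTG2 in LH replicate 1 reached 12 UMIs in 1 cell at a mean of 0.211. How far single cells set these ratios was not tested.

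**Figure D5:**
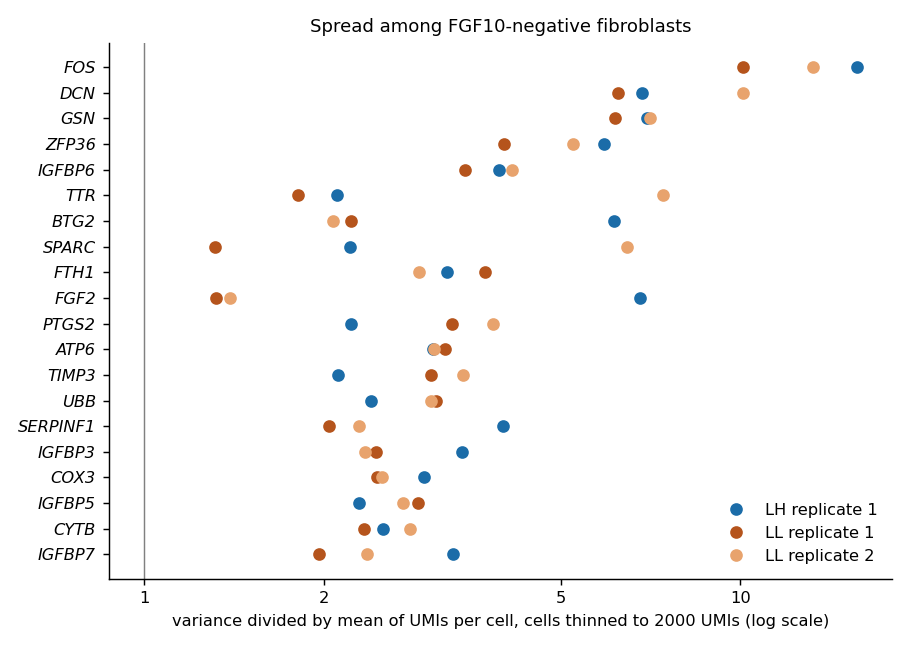
Variance divided by mean of UMIs per cell (log axis) for the 20 genes of highest average, in FGF10-negative fibroblasts thinned to 2000 UMIs, for 3 libraries, with a vertical line at the Poisson value of 1. FOS lies at 10.1 to 15.7, while TTR, SPARC, BTG2 and FGF2 have 1 library apart from the others. In the library apart, the highest count in 1 cell was 32, 37, 12 and 24 UMIs, in that order.

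Some of the widely spread genes varied together, as described by Pearson's r across cells in LH replicate 1, LL replicate 1 and LL replicate 2 for pairs chosen after their values were seen. All cells of a library share its preparation, and thinning gave them equal depth. FOS went with ZFP36 (r = 0.683, 0.464 and 0.603), with BTG2 (0.457, 0.365 and 0.425), with PTGS2 (0.529, 0.374 and 0.352) and with UBB, a stress-induced ubiquitin gene (0.472, 0.416 and 0.389). GSN and ZFP36 had small negative values (-0.265, -0.163 and -0.110), as had FOS and GSN (-0.202, -0.128 and -0.133).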

How the data were processed

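Droplet libraries of 4 ewes were used as UMI counts per gene and barcode, as deposited by the authors. They were made with Cell Ranger, for which the file headers give version 7.2.0 and the submitters' processing notes 5.0.1. Those notes list STAR and Seurat 3.2.0 as well. Genome build and annotation are not given in the sources used here. None of the gene identifiers matched the supplied RefSeq table (0 of 20150), in which 762 of 774 symbols were found, so no coordinates or sequences are printed. The members, gene lists, named genes and most tests were chosen with earlier results of these data known.

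Barcodes over 20% mitochondrial UMIs were left out (102, 19, 94 and 145 for LH replicates 1 and 2 and LL replicates 1 and 2). Counts were summed per library over FGF10-negative, FGF10-positive and other cells and tested with edgeR 4.0.16 in R 4.3.3 (quasi-likelihood, TMM, filterByExpr with a minimum count of 10, Benjamini-Hochberg adjusted p under 0.05 over all genes tested). The 5 gate genes stayed in library totals and out of tests. Log2 differences have the fit's SE, and CPM values are not TMM-scaled. With 2 ewes per stage, precision is limited by the spread between ewes. DESeq2 1.42.0 was an alternative, and the edgeR fits were tested on simulated counts with an assumed dispersion of 0.05 for every gene. For stage, 15% of simulated 2-fold and 94% of 4-fold changes were recovered. The shares were 60% and 100% against other cells, and 46% and 100% against FGF10-positive cells. Doublets stayed in the main analysis. An automatic score threshold called a far larger share of 1 library than of the others, so after seeing this the highest Scrublet-type scores up to 0.8% per 1000 barcodes were taken as calls instead. The stage interaction tests and the spread among cells were also added after the data were seen.

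Genes were named only if they had a symbol. They were the 6 fibroblast markers; for stage, up to 20 genes of lowest p, as too few passed; against other cells, the 25 largest rises with at least 50 CPM and the 5 largest falls; against FGF10-positive cells, up to 10 per direction of the largest called differences with at least 20 CPM and the same direction in at least 3 libraries; and list members of highest level or chosen after their values were seen. A few genes that these rules name are not reported here.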

Additional observations from a re-analysis of the deposited data

How the results depend on the processing

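The difference in share of barcodes kept its direction under every alternative (8.58 to 9.79 percentage points; 6.55 to 12.1 leaving out each library in turn), and no setting can reach p under 0.05 with 2 ewes per stage. The difference in the share without FGF10 has no stable sign: it was -1.13 points with 7 more genes of other cell types at 0 and -12.3 to 12.7 leaving out each library. Calls against other cells stayed within 1.5 times of 5273, and 174 of the 267 with a symbol were called under all 4 omissions. For stage, 1 gene was called in the main analysis, against 0 to 36 leaving out each library, 13 without doublet calls, 5 with DESeq2, 95 with no filter on low counts and 13 with cells thinned to 2000 UMIs. With the replicate block 44 genes were called, but replicate numbers are only shared numbers here (the correlation of same-numbered deviations was 0.0162). Against FGF10-positive cells 180 were called, against 37 to 140 leaving out each library, 22 with DESeq2, 119 with thinning, 0 with no replicate block (unpaired libraries) and 116 with at least 2 FGF10 UMIs per positive cell. Leaving out each library, stage differences ranged from -2.98 to 0.32 (IFNG), -1.76 to 0.33 (ATP1B1), -1.15 to 0.11 (CTTNBP2), -0.73 to 0.35 (SFRP2) and -0.41 to 0.30 (GSN), each highest without LH replicate 1, which also moved the median of all genes to 0.38, and from -0.13 to 0.045 (TIMP2, highest without LH replicate 2). TIMP2 was 0.0035 with no filter, 0.0051 with thinning and 0.018 with equal numbers of cells. Against FGF10-positive cells PAEP turned to -0.36 with the stricter DCN gate, and MMP2, near 0 throughout, ranged from -0.12 to 0.061 leaving out each library and stood at 0.049 with 7 more genes at 0, 0.0062 with no filter and 0.012 with thinning. The causes were not tested. Cells of at least 1000 UMIs, an alternative chosen after seeing the data, gave 1, 5231 and 179 calls. Depth limits LH replicate 2 most, where 22 cells gave 69402 UMIs.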
